A study of Jaltomata procumbens and Jaltomata herrerae with 23 samples.

Results

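The transition to nectar secretion was examined in floral nectaries of Jaltomata herrerae, a nightshade species related to tomato that makes red nectar. The comparison sets 3 secretory libraries against 3 pre-secretory libraries, chosen by their labels among the 23 libraries of the series, and covers all loci of the table. Secretory nectaries were taken at full anthesis, about 3 to 6 h after dawn. Pre-secretory nectaries were taken about 24 to 48 h before the flower opened, at an hour of day that the labels do not give. Both groups came from plants of a growth facility with no treatment named and were dissected by hand, and the labels state triplicate preparations without saying whether the 3 libraries of a stage came from separate plants. The p-values therefore measure the spread between these libraries, which may be technical.

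A floral nectary is a small gland at the base of the flower. Before anthesis it imports sugar and stores much of it as starch. At anthesis starch is broken down, sucrose leaves the cells through SWEET transporters, cell wall invertase splits it, and water follows the sugar. In Arabidopsis the YABBY factor CRABS CLAW (CRC) is needed for nectaries to form. The red pigment of J. herrerae nectar, nesocodin, forms from sinapaldehyde, a phenylpropanoid, and the amino acid proline. Each row of the table is an Arabidopsis locus to which Jaltomata transcripts had been matched, so the gene names below are those of the matched Arabidopsis loci. How transcripts were assigned to loci is not given, and close relatives of a gene may be merged in its row or split between rows.

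The deposited values are TPM (transcript levels scaled to a fixed library total) rounded to whole numbers. Each library was divided by 1 factor, the median ratio to the geometric mean of the 6 libraries over the 10619 loci above 0 in all of them, and the result is called rescaled TPM below. The factors ran between 0.661 and 0.988 in secretory libraries and between 0.835 and 1.77 in pre-secretory libraries. The 3 loci with the highest values, AT5G50290, AT5G36210 and AT2G01021, together held 30.5% to 48.8% of the listed TPM in secretory libraries and 10.9% to 47.2% in pre-secretory libraries. Each of the 6 libraries correlated best with its own group, with Pearson's r of log2 values of at least 0.944 within a group and at most 0.912 between the groups. Read depth per library is not in the table. Tests were made with limma on log2(rescaled TPM + 1), a scale that understates the change of low loci. Values of the 3 libraries are listed in the order A, B, C, and errors are SD with n = 3 in each group. Most genes described below were named by a rule that took only called loci whose groups do not overlap. Statements that the groups of such genes do not overlap restate that choice and are no further result.

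Of 13170 loci, 11969 had at least 1 TPM in at least 3 of the 6 libraries and were tested, and 1201 were not. At a Benjamini-Hochberg adjusted p under 0.05 limma called 3592 loci, 30.0% of those tested, of which 1749 (14.6%) were higher and 1843 (15.4%) lower in secretory nectaries. The calls thus split 48.7% to the higher side, and the median log2 change of all tested loci was -0.05. Without rescaling the median was -0.44 and 858 loci were called, 154 higher and 704 lower (17.9% higher). With upper-quartile scaling it was -0.19 and 3824 loci were called, 1360 higher and 2464 lower (35.6% higher). No locus called after rescaling by median ratios was called in the opposite direction under either of the other scalings. The count was 2115 without secretory library B and 2121 without pre-secretory library B. Changes of at least 4-fold were called for 179 higher and 73 lower loci. Among the lower calls 180 loci never exceeded 2 TPM in any of the 6 libraries, as did 26 of the higher calls, and 95 of the lower ones were listed at 0 in every secretory library and at 1 TPM in every pre-secretory library. For such loci the values move in steps as large as the difference. At any level, 243 of the lower calls were listed at 0 in every secretory library. Of the higher calls, 22 were listed at 0 in every pre-secretory library. These loci passed the filter through 1 group alone, and the split of the calls rests in part on them. In whole glands, fewer cells of a type and less RNA per cell cannot be told apart. Counts of the lists below are to be read beside the shares of all tested loci, 14.6% higher and 15.4% lower.

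**Figure D1:**
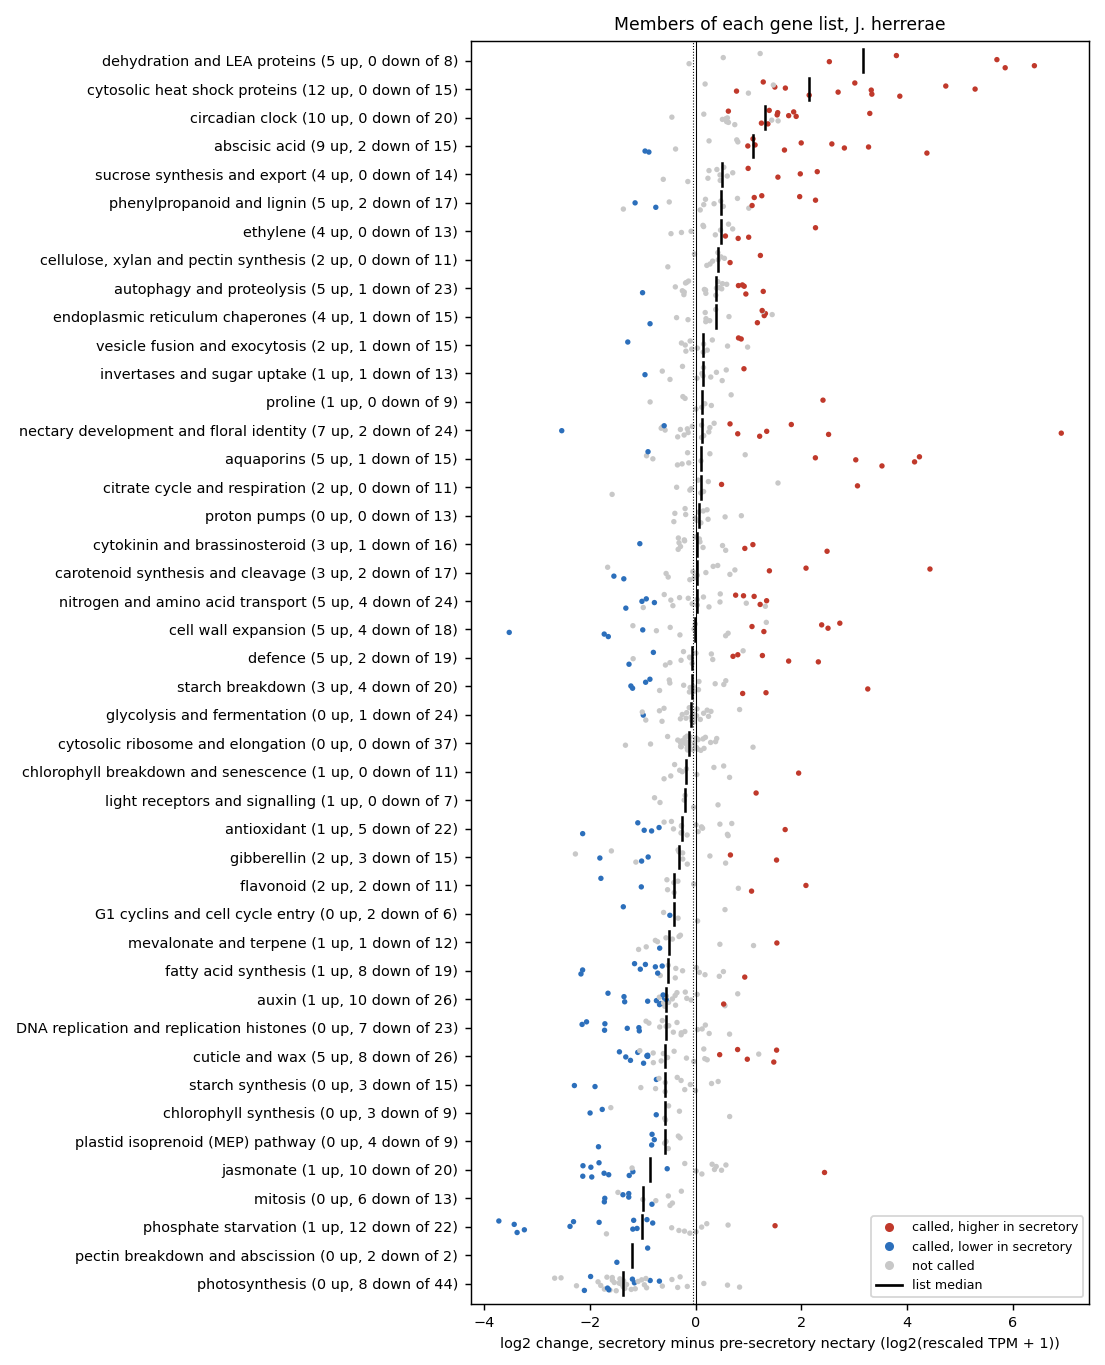
Log2 change of each tested member of 44 gene lists, secretory minus pre-secretory nectary; each point is 1 locus, coloured by its call, the black bar is the list median, and the dotted line is the median of all tested loci (-0.05). Dehydration proteins, heat shock proteins and clock loci lie to the right, phosphate starvation, jasmonate and mitosis loci to the left.

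Among genes of nectary development and floral identity, 7 rose and 2 fell of 24 tested (median log2 change 0.12). CRC had 3501, 2248 and 2256 rescaled TPM in the secretory libraries, against 465, 543 and 375 in the pre-secretory libraries. Every secretory library was several times above every pre-secretory library, and the change was 2.51 log2 units (SE 0.28, adjusted p = 0.00137). A locus matched to SVP, in Arabidopsis a MADS-box repressor of flowering, had 124, 406 and 349.5 rescaled TPM in the secretory libraries, against 2.40, 0.564 and 0.91 in the pre-secretory libraries. It was close to absent before secretion and moderately abundant in all 3 secretory libraries, although secretory A was the lowest of them, and its change of 6.91 log2 units (SE 0.48, adjusted p = 0.000333) was the largest among the named genes. AP2, a floral organ identity factor, rose by 1.81 log2 units (adjusted p = 0.00216), and SHP2, a carpel MADS-box factor, by 1.35 log2 units (adjusted p = 0.00174). The opposite direction was seen for FIL, a YABBY factor of the outer side of young organs, with 11.1, 33.7 and 31.8 rescaled TPM in the secretory libraries, against 173, 169 and 89.2 in the pre-secretory libraries, a change of -2.53 log2 units (SE 0.44, adjusted p = 0.00642). The groups did not overlap for any of these 5 genes, as the naming rule required of all but CRC and SVP, which were to be named whatever their values. With no rescaling, 1 gene of this list was called higher. The next genes, MYB21 and MYB24, belong to the jasmonate list. MYB21 and MYB24, myb factors of late flower development, averaged 38.1 ± 14.8 rescaled TPM in secretory and 27.6 ± 3.66 in pre-secretory nectaries for MYB21 and 581 ± 218 rescaled TPM in secretory and 651 ± 132 in pre-secretory nectaries for MYB24, and neither was called (adjusted p = 0.293 and 0.642; 95% intervals of the log2 change -0.22 to 0.9989 and -0.91 to 0.50).

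Of 14 tested genes of sucrose synthesis and export, 4 rose and the other 10 were not called, and the 4 were all SWEET transporters. SWEET9, the nectary sucrose exporter, had 10527, 12956 and 12542 rescaled TPM in the secretory libraries, against 3089, 3800.0 and 5717 in the pre-secretory libraries, a change of 1.56 log2 units (SE 0.44, adjusted p = 0.0335). SWEET11, a sucrose exporter of the phloem in leaves, had 5616, 8998 and 5246 rescaled TPM in the secretory libraries and 881, 1879.7 and 2605 in the pre-secretory libraries, a change of 1.98 log2 units (SE 0.48, adjusted p = 0.0204). SWEET15, known from ageing leaves and seeds, had 67.8, 139 and 123 rescaled TPM in the secretory libraries and 21.6, 16.9 and 23.7 in the pre-secretory libraries, a change of 2.3004 log2 units (SE 0.28, adjusted p = 0.00177). All 3 were higher in each secretory library than in any pre-secretory one, and the 2 most abundant were already high before secretion. SWEET9 was not called without secretory A, B or C or pre-secretory B (adjusted p up to 0.106), nor SWEET11 without secretory B (adjusted p up to 0.0719). The number called higher was 1 with no rescaling or without secretory B and 2 with a pseudocount of 0.1 or without secretory C or pre-secretory B. SPS1F, a sucrose phosphate synthase, averaged 319 ± 16.3 rescaled TPM in secretory and 275 ± 75.3 in pre-secretory nectaries (adjusted p = 0.439, 95% interval of the log2 change -0.29 to 0.79). CWINV4, the cell wall invertase of nectaries, had 43.5, 287 and 157 rescaled TPM in the secretory libraries, against 82.7, 117 and 89.2 in the pre-secretory libraries. The groups overlapped, since secretory A was below every pre-secretory library and the other two were above all of them (adjusted p = 0.65, 95% interval -1.0029 to 1.79). Without secretory A, limma called CWINV4 higher, with a change of 1.15 (adjusted p = 0.0313). CINV2, a cytosolic invertase, rose by 0.92 log2 units (adjusted p = 0.00755), but was not called with no rescaling (adjusted p = 0.534). CWINV4, CINV2 and SUC2 belong to a separate list of invertases and sugar uptake. Of its 13 tested loci 1 rose and 1 fell, 7.7% each, beside 14.6% and 15.4% of all tested loci. Both counts were 0 with no rescaling. The number that fell was also 0 without secretory A or B or pre-secretory A, B or C. SUC2, the sucrose importer of companion cells, averaged 4.43 ± 1.52 rescaled TPM in secretory and 4.22 ± 0.541 in pre-secretory nectaries (adjusted p = 0.939).

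In starch breakdown 3 rose and 4 fell of 20 tested, which is 15% and 20%, beside 14.6% and 15.4% of all tested loci. BAM1, a plastid beta-amylase, had 256, 676 and 374 rescaled TPM in the secretory libraries, against 33.5, 51.9 and 40.0 in the pre-secretory libraries, a change of 3.26 log2 units (SE 0.35, adjusted p = 0.00118). AMY3, the plastid alpha-amylase, averaged 49.1 ± 5.96 rescaled TPM in secretory and 19.1 ± 4.30 in pre-secretory nectaries and changed by 1.33 log2 units (adjusted p = 0.00356), and GWD1, which phosphorylates starch, rose by 0.89 log2 units (adjusted p = 0.0262). PHS1, the plastid starch phosphorylase, fell with a change of -1.19 log2 units (adjusted p = 0.00423), and PGLCT, the glucose exporter of the plastid envelope, with -0.94 log2 units (adjusted p = 0.00687). GWD1 was not called without secretory A or B or pre-secretory A (adjusted p up to 0.0852). With no rescaling, 1 gene was called higher and 0 lower. Of 15 tested genes of starch synthesis 3 fell and the other 12 were not called (6 with upper-quartile scaling and 5 in a fit on 9 nectary libraries). UGP1, the UDP-glucose pyrophosphorylase, was the only called gene of 24 tested in glycolysis and fermentation with all 6 libraries, with 122 ± 13.8 rescaled TPM in secretory and 245 ± 47.1 in pre-secretory nectaries and a change of -0.99 log2 units (adjusted p = 0.00866). The number of that list that fell was 0 with no rescaling and 4 with upper-quartile scaling or without secretory B. It was 2 with a pseudocount of 5 or with no trend in the prior variance or without pre-secretory A. It was 3 over loci with a mean of at least 5 TPM, in a fit on 9 nectary libraries or with a replicate block. The number that rose was 1 without secretory A.

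Genes of water deficit had the highest median of all lists. Of 8 tested loci for dehydrins and other late embryogenesis abundant (LEA) proteins, which protect cells that lose water, 5 rose and the other 3 were not called (median log2 change 3.16). The count was 5 with no rescaling too, and 5 or 6 with any 1 library left out. LEA7 had 867, 685 and 487 rescaled TPM in the secretory libraries, against 13.2, 5.07 and 4.55 in the pre-secretory libraries, a change of 6.40 log2 units (SE 0.38, adjusted p = 0.000275). The dehydrin ERD10 had 345, 409.9 and 309 rescaled TPM in the secretory libraries and 8.39, 3.38 and 4.55 in the pre-secretory libraries, a change of 5.85 log2 units (SE 0.28, adjusted p = 0.000111). Both were near the floor before secretion and abundant in every secretory library. LEA4-5 had 40.5, 123 and 90.8 rescaled TPM in the secretory libraries and 2.40, 0 and 0 in the pre-secretory libraries, a change of 5.70 log2 units (SE 0.56, adjusted p = 0.000928). SRO5, a stress protein of the RCD1 family, rose by 3.80 log2 units (adjusted p = 0.000277).

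Abscisic acid is the hormone of water deficit, and 9 rose and 2 fell of 15 tested genes of its synthesis and response (median log2 change 1.09). Protein phosphatases of clade A, which inhibit the signal and are themselves induced by it, led the list. HAI2 had 80.0, 184 and 156 rescaled TPM in the secretory libraries, against 8.39, 5.07 and 3.64 in the pre-secretory libraries, a change of 4.37 log2 units (SE 0.36, adjusted p = 0.000571). PP2CA had 111, 360.3 and 297 rescaled TPM in the secretory libraries and 24.0, 20.9 and 23.7 in the pre-secretory libraries, a change of 3.27 log2 units (SE 0.40, adjusted p = 0.00188). In both genes secretory A was the lowest secretory library and still several times above every pre-secretory one. HAB1 rose by 1.68 log2 units (adjusted p = 0.00234), and ABF4, a transcription factor of the response, by 2.58 log2 units (adjusted p = 0.0107). NCED3, the rate-limiting enzyme of abscisic acid synthesis, was called at a low level, with 2.02, 3.16 and 4.54 rescaled TPM in the secretory libraries, against 1.198, 1.13 and 0.91 in the pre-secretory libraries, a change of 0.99 log2 units (adjusted p = 0.0274), but not without secretory B or C or pre-secretory A, B or C (adjusted p up to 0.0821). ABA3, which makes the cofactor of the last synthetic step, fell with a change of -0.88 log2 units (adjusted p = 0.0109). The number of genes that rose was 5 with no rescaling and 4 over loci with a mean of at least 5 TPM. It was 6 without secretory B or C or pre-secretory A, B or C, and 10 without secretory A.

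Of 15 tested aquaporins, the water channels of membranes, 5 rose and 1 fell. The number that fell was 0 with no trend in the prior variance or without secretory A or B or pre-secretory A or C and 2 without pre-secretory B. PIP1;3 had 285, 650.1 and 483 rescaled TPM in the secretory libraries, against 45.5, 38.9 and 30.9 in the pre-secretory libraries, a change of 3.52 log2 units (SE 0.30, adjusted p = 0.000653). PIP2;5 had 70.9, 271 and 189 rescaled TPM in the secretory libraries and 8.39, 6.20 and 7.28 in the pre-secretory libraries, a change of 4.23 log2 units (SE 0.44, adjusted p = 0.00107). PIP2;6 had 30.4, 149 and 95.3 rescaled TPM in the secretory libraries and 4.79, 2.82 and 2.73 in the pre-secretory libraries, a change of 4.14 log2 units (SE 0.52, adjusted p = 0.00205). These plasma membrane channels showed 1 order among the secretory libraries, with B highest and A lowest, and all exceeded every pre-secretory library. TIP2;1, a channel of the vacuole membrane, averaged 46.8 ± 4.48 rescaled TPM in secretory and 5.25 ± 2.85 in pre-secretory nectaries and changed by 3.03 log2 units (adjusted p = 0.000954).

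Heat shock proteins, chaperones that hold unfolded proteins, rose in 12 of 15 tested loci, and the other 3 were not called (median log2 change 2.15). HSP17.6II, a small heat shock protein, had 225, 341 and 197 rescaled TPM in the secretory libraries, against 18.0, 6.77 and 4.55 in the pre-secretory libraries, a change of 4.73 log2 units (SE 0.44, adjusted p = 0.000758). HSP23.6, a small heat shock protein of mitochondria, had 134, 157 and 96.8 rescaled TPM in the secretory libraries and 10.8, 0.564 and 0.91 in the pre-secretory libraries, a change of 5.28 log2 units (SE 0.70, adjusted p = 0.00245). HSP17.8 rose by 3.86 log2 units (adjusted p = 0.000114), and HSFA2, a transcription factor that activates such genes, had 41.5, 158 and 93.8 rescaled TPM in the secretory libraries and 7.19, 7.33 and 8.19 in the pre-secretory libraries, a change of 3.33 log2 units (adjusted p = 0.00205). No pre-secretory library reached any secretory library for these 4. Of the 15 heat shock loci, 6 were called with no rescaling and 8 without secretory C. Of the chaperones of the endoplasmic reticulum, 4 rose and 1 fell of 15 tested, and 0 were called higher with no rescaling. PDIL2-1, a disulfide isomerase, averaged 195 ± 23.9 rescaled TPM in secretory and 78.4 ± 5.84 in pre-secretory nectaries and changed by 1.2983 log2 units (adjusted p = 0.00172). ERDJ3B, a co-chaperone, rose by 1.32 log2 units (adjusted p = 0.00533). BIP2, the main Hsp70 of the compartment, rose by 1.26 log2 units (adjusted p = 0.0149) and lost its call without secretory B (adjusted p up to 0.0548). CRT3, a calreticulin, fell with a change of -0.86 log2 units (adjusted p = 0.00956).

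**Figure D2:**
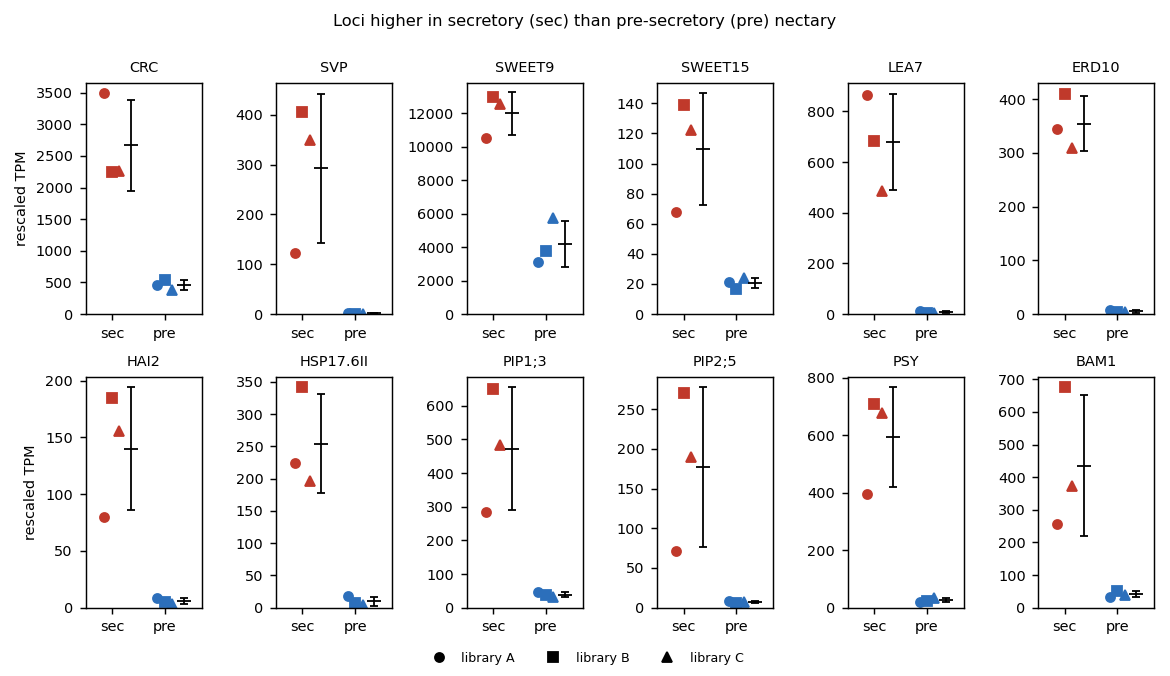
Rescaled TPM of 12 loci in each secretory (sec, red) and pre-secretory (pre, blue) library; symbols mark libraries A, B and C, and black bars are the mean ± SD of 3 libraries. Each axis starts at 0. In all 12 panels the lowest secretory library is above the highest pre-secretory library. The naming rule required this, except of CRC, SVP, SWEET9, LEA7, PIP1;3, PSY and BAM1, which were to be named whatever their values. All 12 were drawn as loci that rose, so the gap is no further result.

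Of 15 tested genes of vesicle fusion and exocytosis 2 rose and 1 fell, which is 13.3% and 6.67%, beside 14.6% and 15.4% of all tested loci. The number that rose was 0 with no rescaling or without secretory B, 4 without secretory A and 1 without secretory C or pre-secretory A. SYP22, a SNARE of the vacuole and prevacuole, rose by 0.86 log2 units (adjusted p = 0.0302) and SNAP33, a SNARE of the plasma membrane, by 0.81 log2 units (adjusted p = 0.0156). PATROL1, a protein that carries proton pumps to the plasma membrane, averaged 3.92 ± 0.699 rescaled TPM in secretory and 10.9 ± 1.67 in pre-secretory nectaries and fell with a change of -1.28 log2 units (adjusted p = 0.00361). SYP22 was not called without secretory B or C or pre-secretory A (adjusted p up to 0.0877), and SNAP33 was not called without secretory B (adjusted p up to 0.0512). Among proton pumps of the plasma membrane and the vacuole, limma called 0 of 13 tested, and 3 had an unadjusted p under 0.05. The number called higher was 1 over loci with a mean of at least 5 TPM, in a fit on 9 nectary libraries, with a replicate block or without secretory A or pre-secretory A. The number called lower was 2 with upper-quartile scaling. Cytosolic ribosomal and elongation proteins likewise had 0 called of 37, with 0 at an unadjusted p under 0.05 and a median log2 change -0.12.

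Of 20 tested loci of the circadian clock 10 rose and the other 10 were not called (median log2 change 1.31). With no rescaling 1 was called, and 8 to 14 were called when 1 library was omitted. RVE6, a myb activator of evening genes, had 18.22, 63.2 and 42.4 rescaled TPM in the secretory libraries, against 3.59, 3.38 and 1.82 in the pre-secretory libraries, a change of 3.29 log2 units (SE 0.43, adjusted p = 0.00224). RVE4, its close relative, had 7.09, 26.3 and 12.1 rescaled TPM in the secretory libraries and 2.40, 3.38 and 2.73 in the pre-secretory libraries, a change of 1.90 log2 units (SE 0.40, adjusted p = 0.0132). For both, secretory A was the lowest of its group and above every pre-secretory library. RVE1, which links the clock to auxin, had 14.2, 21.1 and 9.08 rescaled TPM in the secretory libraries and 2.40, 4.51 and 3.64 in the pre-secretory libraries, a change of 1.76 log2 units (SE 0.31, adjusted p = 0.00701). PRR3, a pseudo-response regulator, had 10.1, 32.7 and 19.7 rescaled TPM in the secretory libraries and 3.59, 4.51 and 5.46 in the pre-secretory libraries, a change of 1.85 log2 units (SE 0.38, adjusted p = 0.0112). Secretory B was the highest library for each of the 4, and the groups did not overlap. The other called members, named after their values were seen, were GI, FKF1, ZTL, PRR5, TOC1 and LNK1. LHY, a central morning gene of the clock and likewise named after its values were seen, had 4.05, 22.1 and 12.1 rescaled TPM in the secretory libraries and 7.19, 6.20 and 4.55 in the pre-secretory libraries, and was not called (adjusted p = 0.297). HY5, a light-signalling factor, was the single call among 7 tested light receptors and signalling genes, with a change of 1.14 log2 units (adjusted p = 0.0167). The hour of harvest is given for secretory flowers only, so hour of day and stage cannot be told apart for these genes.

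**Figure D3:**
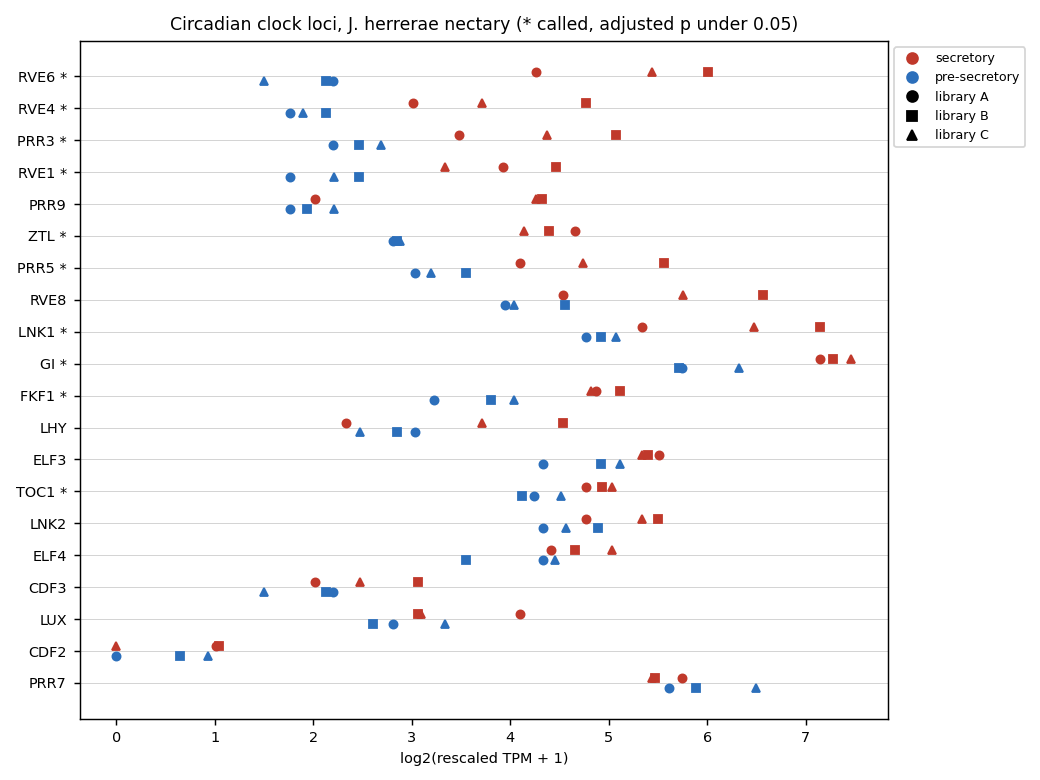
Log2(rescaled TPM + 1) of the 20 tested clock loci in each secretory (red) and pre-secretory (blue) library, with symbols for libraries A, B and C and a star at the 10 called loci. Loci are ordered by log2 change, and the 4 with the largest change are all called.

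Of 17 tested carotenoid genes 3 rose and 2 fell, which is 17.65% and 11.76%, beside 14.6% and 15.4% of all tested loci. PSY, phytoene synthase, which commits isoprenoid precursors to carotenoids, had 394, 709 and 676 rescaled TPM in the secretory libraries, against 21.6, 22.0 and 35.5 in the pre-secretory libraries, a change of 4.43 log2 units (SE 0.29, adjusted p = 0.000319). Every secretory library was more than 10 times above every pre-secretory library. BCH2, a beta-carotene hydroxylase, averaged 31.8 ± 14.6 rescaled TPM in secretory and 6.32 ± 2.41 in pre-secretory nectaries and changed by 2.09 log2 units (adjusted p = 0.00902). CCD4, a dioxygenase that cleaves carotenoids, averaged 1085 ± 176 rescaled TPM in secretory and 438 ± 179 in pre-secretory nectaries and changed by 1.3960 log2 units (adjusted p = 0.0248), a call lost without secretory A, B or C (adjusted p up to 0.0825). ABA4, which is needed for neoxanthin, fell with a change of -1.54 log2 units (adjusted p = 0.00557). The number of carotenoid genes that rose was 1 with no rescaling, and the number that fell was 1 with no rescaling or without the 3 highest loci or with a pseudocount of 0.1 or with no filter on low values or over loci with a mean of at least 5 TPM or without secretory B or C or pre-secretory C and 4 with upper-quartile scaling or in a fit on 9 nectary libraries. The plastid pathway that supplies isoprenoid precursors was lower, with 4 of 9 tested genes falling and the other 5 not called (0 with no rescaling, 2 without secretory B or C and 1 without pre-secretory B). MCT, an enzyme of that pathway, averaged 7.53 ± 1.29 rescaled TPM in secretory and 30.1 ± 9.74 in pre-secretory nectaries and changed by -1.83 log2 units (adjusted p = 0.00232). Its other enzymes CMK (-0.83 log2 units, adjusted p = 0.0217) and DXR (-0.82 log2 units, adjusted p = 0.0147) and the downstream synthase GGPPS11 (-0.78 log2 units, adjusted p = 0.0405) fell too. Those calls were lost for CMK without secretory C or pre-secretory B (adjusted p up to 0.0713), for DXR without secretory B or pre-secretory B (adjusted p up to 0.053) and for GGPPS11 without secretory B or C or pre-secretory B or C (adjusted p up to 0.126). Of 12 tested genes of the mevalonate pathway and volatiles, BSMT1, a methyltransferase that makes volatile benzoate esters, averaged 246 ± 42.8 rescaled TPM in secretory and 87.1 ± 31.1 in pre-secretory nectaries and rose by 1.54 log2 units (adjusted p = 0.0084). PMK, a mevalonate pathway kinase, fell with a change of -0.68 log2 units (adjusted p = 0.0234), and not without secretory B or C or pre-secretory B or C (adjusted p up to 0.0819).

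Of 44 tested photosynthesis genes 8 fell and the other 36 were not called (median log2 change -1.36). Their summed level was 674, 1221 and 1657 rescaled TPM in the secretory libraries, against 3629, 1092 and 9335 in the pre-secretory libraries. The groups overlapped, since pre-secretory B was below secretory B and C, while pre-secretory C was far above all others. LHCB6, an antenna protein of photosystem II, had 10.1, 15.8 and 19.7 rescaled TPM in the secretory libraries, against 44.3, 31.6 and 78.3 in the pre-secretory libraries, a change of -1.64 log2 units (SE 0.35, adjusted p = 0.0137). PSBP1 and PSBO1, of the oxygen-evolving complex, fell with changes of -2.10 log2 units (adjusted p = 0.0158) and -1.98 log2 units (adjusted p = 0.016), and LHCB5, another antenna protein, with -1.19 log2 units (adjusted p = 0.0268). The number that fell was 5 with no rescaling or without pre-secretory C, 4 without secretory A, 3 without secretory B and 29 without pre-secretory B. PSBO1 was not called without secretory B (adjusted p up to 0.0518), and LHCB5 was not called without secretory A or B (adjusted p up to 0.0777). Whether green tissue of another kind took a part in the pre-secretory libraries was not tested. Chlorophyll genes followed with 3 lower of 9 (0 with no rescaling). CHLG, chlorophyll synthase, averaged 18.5 ± 3.51 rescaled TPM in secretory and 78.5 ± 24.0 in pre-secretory nectaries and changed by -1.99 log2 units (adjusted p = 0.00226), and HEMA1, which starts tetrapyrrole synthesis, changed by -0.74 log2 units (adjusted p = 0.0122). NYC1, which begins chlorophyll b breakdown, averaged 50.6 ± 7.47 rescaled TPM in secretory and 12.4 ± 2.49 in pre-secretory nectaries and rose by 1.95 log2 units (adjusted p = 0.000926). It was the only call among 11 tested genes of chlorophyll breakdown and senescence.

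Of 22 tested genes of the phosphate starvation response, 1 rose and 12 fell (median log2 change -1.01), and 5 were called lower with no rescaling. The number called lower was 9 without secretory B or pre-secretory B. SPX1, a phosphate sensor, had 7.09, 6.32 and 9.08 rescaled TPM in the secretory libraries, against 74.3, 129 and 138 in the pre-secretory libraries, a change of -3.72 log2 units (SE 0.26, adjusted p = 0.000333). G3PP1, a glycerol-3-phosphate transporter, had 3.04, 3.16 and 4.54 rescaled TPM in the secretory libraries and 32.3, 61.5 and 54.6 in the pre-secretory libraries, a change of -3.43 log2 units (SE 0.26, adjusted p = 0.000428). PECP1, a phosphatase of phosphoethanolamine, had 14.2, 23.2 and 22.7 rescaled TPM in the secretory libraries and 92.2, 360.3 and 286 in the pre-secretory libraries, a change of -3.37 log2 units (SE 0.48, adjusted p = 0.00325). For each, all pre-secretory libraries were several times above all secretory libraries. SPX2, a relative of SPX1, fell with a change of -3.24 log2 units (adjusted p = 0.00352). PLDZ1, a phospholipase D, was the 1 member that rose, by 1.5029 log2 units (adjusted p = 0.00656).

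Proline and sinapaldehyde are the precursors of the red pigment. In the proline list 1 of 9 tested genes rose and none fell (median log2 change 0.12). That is 11.1% higher, beside 14.6% of all tested loci. P5CR, which makes proline in its last step, had 342, 393 and 563 rescaled TPM in the secretory libraries, against 81.5, 45.1 and 133 in the pre-secretory libraries, a change of 2.41 log2 units (SE 0.38, adjusted p = 0.00475). All secretory libraries exceeded all pre-secretory ones. Phenylpropanoid and lignin genes split into 5 higher and 2 lower of 17 tested. CCOAOMT1, which methylates caffeoyl-CoA, had 70.9, 71.6 and 54.5 rescaled TPM in the secretory libraries, against 12.0, 11.8 and 14.6 in the pre-secretory libraries, a change of 2.27 log2 units (SE 0.16, adjusted p = 0.000376). HCT, a shikimate transferase of the same route, had 222, 269.7 and 195 rescaled TPM in the secretory libraries and 40.7, 68.2 and 67.3 in the pre-secretory libraries, a change of 1.97 log2 units (SE 0.24, adjusted p = 0.00176). Both were higher in each secretory library. COMT1, the methyltransferase that leads to sinapyl units, averaged 211 ± 91.1 rescaled TPM in secretory and 83.1 ± 21.3 in pre-secretory nectaries and changed by 1.25 log2 units (adjusted p = 0.0366). C4H, cinnamate hydroxylase, averaged 169.8 ± 79.3 rescaled TPM in secretory and 75.3 ± 1.301 in pre-secretory nectaries and changed by 1.07 log2 units (adjusted p = 0.0296). COMT1 was not called without secretory B or C or pre-secretory A or B (adjusted p up to 0.11), nor C4H without pre-secretory A, B or C (adjusted p up to 0.0702). CSE, an esterase of the lignin route, fell with a change of -0.75 log2 units (adjusted p = 0.0161), but not without secretory C or pre-secretory B (adjusted p up to 0.0576). The number called higher was 2 without pre-secretory B, 3 without secretory B or C or pre-secretory A, and 1 with no rescaling. In the flavonoid list FLS1, flavonol synthase, rose by 2.09 log2 units (adjusted p = 0.00407) and F3H, flavanone hydroxylase, by 1.06 log2 units (adjusted p = 0.0158). Of the 11 tested loci of that list, 2 rose and 2 fell. The number that rose was 0 with no rescaling, and the number that fell was 0 over loci with a mean of at least 5 TPM or without pre-secretory A or C and 1 without secretory A or B or pre-secretory B.

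Amino acid transport and nitrogen genes gave 5 higher and 4 lower of 24 tested. These are 20.8% and 16.7%, beside 14.6% and 15.4% of all tested loci. LHT1, an amino acid importer, averaged 52.4 ± 10.9 rescaled TPM in secretory and 23.5 ± 3.07 in pre-secretory nectaries and changed by 1.11 log2 units (adjusted p = 0.00658). The permeases AAP2 (1.34 log2 units, adjusted p = 0.019) and AAP6 (0.91 log2 units, adjusted p = 0.0325) and the glutamate synthase GLT1 (0.76 log2 units, adjusted p = 0.0423) rose as well. AAP2 was not called without secretory B or C or pre-secretory A or B (adjusted p up to 0.0655), AAP6 not without secretory B or C or pre-secretory B or C (adjusted p up to 0.0943) and GLT1 not without secretory B or C or pre-secretory A, B or C (adjusted p up to 0.114). GDH2, a glutamate dehydrogenase, fell with a change of -1.01 log2 units (adjusted p = 0.00914). Counts on the higher side were 0 with no rescaling, 1 without secretory B or C or pre-secretory B and 3 without pre-secretory A or C, and on the lower side 1 with no rescaling and 2 without secretory B or pre-secretory B.

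Jasmonate genes fell in 10 of 20 tested and rose in 1 (median log2 change -0.86), and 6 were called lower with no rescaling. The number called lower was 7 without secretory B or pre-secretory B. MYB21 and MYB24, described above and not called, belong to this list. Jasmonate is the hormone of wounding and of late flower development. LOX2, a lipoxygenase of its first step, had 9.11, 27.4 and 27.2 rescaled TPM in the secretory libraries, against 128, 87.4 and 58.2 in the pre-secretory libraries, a change of -2.13 log2 units (SE 0.45, adjusted p = 0.0126). LOX3, another lipoxygenase, had 6.07, 16.9 and 18.16 rescaled TPM in the secretory libraries and 53.9, 91.3 and 39.1 in the pre-secretory libraries, a change of -2.13 log2 units (SE 0.44, adjusted p = 0.0118). The cyclases AOC3 and AOC4 fell with changes of -1.98 log2 units (adjusted p = 0.0166) and -1.96 log2 units (adjusted p = 0.00855). In these 4 every secretory library was below every pre-secretory library. JAZ6, a repressor of the response, was the exception, with 38.5, 163 and 86.2 rescaled TPM in the secretory libraries and 20.4, 13.0 and 10.9 in the pre-secretory libraries, a change of 2.44 log2 units (adjusted p = 0.0104).

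Auxin genes fell in 10 of 26 tested and rose in 1 (median log2 change -0.55). ARF6 and ARF8, response factors that promote flower maturation in Arabidopsis, averaged 27.5 ± 1.22 rescaled TPM in secretory and 44.7 ± 3.82 in pre-secretory nectaries for ARF6 and 38.2 ± 2.11 rescaled TPM in secretory and 59.1 ± 5.06 in pre-secretory nectaries for ARF8, changes of -0.68 log2 units (adjusted p = 0.00948) and -0.61 log2 units (adjusted p = 0.0144). ARF4, a response factor of organ polarity, had 3.04, 2.11 and 4.54 rescaled TPM in the secretory libraries, against 14.4, 13.0 and 9.10 in the pre-secretory libraries, a change of -1.65 log2 units (adjusted p = 0.00465). IAA27, a repressor of auxin response, fell with a change of -1.35 log2 units (adjusted p = 0.00665). ARF1 rose by 0.53 log2 units (adjusted p = 0.0179). Calls were lost for ARF8 without secretory B or C or pre-secretory B (adjusted p up to 0.06) and for ARF1 without secretory B or C or pre-secretory B (adjusted p up to 0.0748). The number that fell was 4 with no rescaling, 3 without secretory B, 5 without secretory C or pre-secretory B and 6 without pre-secretory C. Ethylene genes rose in 4 of 13 tested. ACS6, which makes the ethylene precursor, averaged 10.2 ± 3.35 rescaled TPM in secretory and 1.27 ± 0.395 in pre-secretory nectaries and changed by 2.27 log2 units (adjusted p = 0.00187). The oxidase ACO4 (0.81 log2 units, adjusted p = 0.0363) and the receptor ETR1 (0.56 log2 units, adjusted p = 0.0391) rose as well. ACO4 was not called without secretory A, B or C or pre-secretory A or B (adjusted p up to 0.111), nor ETR1 without secretory A, B or C or pre-secretory A, B or C (adjusted p up to 0.108). The number that rose was 1 with no rescaling and 2 with upper-quartile scaling or without secretory A, B or C or pre-secretory A or B.

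Gibberellin genes had 2 higher and 3 lower of 15 tested, which is 13.3% and 20%, beside 14.6% and 15.4% of all tested loci. GA2OX1, which inactivates gibberellin, averaged 63.8 ± 15.0 rescaled TPM in secretory and 22.6 ± 11.3 in pre-secretory nectaries and rose by 1.53 log2 units (adjusted p = 0.0138), and KAO2, which makes it, averaged 5.600 ± 2.24 rescaled TPM in secretory and 21.4 ± 4.34 in pre-secretory nectaries and fell with a change of -1.81 log2 units (adjusted p = 0.00453). The receptor GID1B (0.66 log2 units, adjusted p = 0.04) rose, and the response gene GASA1 (-1.02 log2 units, adjusted p = 0.0248) fell. GID1B was not called without secretory A, B or C or pre-secretory A or B (adjusted p up to 0.124), nor GASA1 without secretory B or C or pre-secretory B or C (adjusted p up to 0.0799). Among 16 tested cytokinin and brassinosteroid genes, with 3 higher and 1 lower, ARR5, a response regulator induced by cytokinin, had 95.2, 86.4 and 104 rescaled TPM in the secretory libraries, against 44.3, 44.0 and 44.6 in the pre-secretory libraries, a change of 1.08 log2 units (SE 0.13, adjusted p = 0.00191). BZR1, the brassinosteroid response factor, rose by 0.93 log2 units (adjusted p = 0.0159) and was not called without secretory B or C (adjusted p up to 0.0542).

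Defence genes had 5 higher and 2 lower of 19 tested, and the number called higher was 2 with no rescaling or without secretory B and 3 with upper-quartile scaling or without secretory A or pre-secretory A. WRKY40, a factor of early defence responses, had 25.3, 27.4 and 36.3 rescaled TPM in the secretory libraries, against 5.99, 3.95 and 5.46 in the pre-secretory libraries, a change of 2.32 log2 units (SE 0.20, adjusted p = 0.000653). EDS1 (1.26 log2 units, adjusted p = 0.017) and PAD4 (0.80 log2 units, adjusted p = 0.0274), partners in salicylate-dependent immunity, and the kinase MPK3 (0.71 log2 units, adjusted p = 0.0313) rose too. BAK1, a coreceptor of immune and brassinosteroid receptors, fell with a change of -0.80 log2 units (adjusted p = 0.0114). EDS1 was not called without secretory B or C (adjusted p up to 0.057), PAD4 not without secretory A or B or pre-secretory A (adjusted p up to 0.0748) and MPK3 not without secretory A or B or pre-secretory A, B or C (adjusted p up to 0.0834). Antioxidant genes fell in 5 of 22 tested and rose in 1 (22.7% and 4.5%, beside 15.4% and 14.6% of all tested loci). CAT1, a catalase, had 8.10, 9.48 and 12.1 rescaled TPM in the secretory libraries, against 46.7, 45.7 and 46.4 in the pre-secretory libraries, a change of -2.13 log2 units (SE 0.16, adjusted p = 0.000428). The ascorbate synthesis enzymes VTC1 (-0.83 log2 units, adjusted p = 0.00585) and VTC4 (-0.97 log2 units, adjusted p = 0.0315) and the dehydroascorbate reductase DHAR3 (-1.09 log2 units, adjusted p = 0.0111) fell. APX2, an ascorbate peroxidase induced by heat, averaged 103 ± 26.5 rescaled TPM in secretory and 30.5 ± 2.67 in pre-secretory nectaries and rose by 1.69 log2 units (adjusted p = 0.00158). VTC4 was not called without secretory A or C or pre-secretory A or B (adjusted p up to 0.0886), and the number that fell was 1 with no rescaling and 3 without secretory A or C or pre-secretory A or B.

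Among genes of mitosis 6 of 13 tested fell and the other 7 were not called (median log2 change -0.99). CDC20.1, an activator of the complex that ends mitosis, had 7.09, 8.43 and 12.1 rescaled TPM in the secretory libraries, against 33.5, 18.6 and 24.6 in the pre-secretory libraries, a change of -1.37 log2 units (SE 0.26, adjusted p = 0.00881). TPX2, a spindle protein, fell with a change of -0.82 log2 units (adjusted p = 0.011). The number that fell was 2 over loci with a mean of at least 5 TPM or without pre-secretory A, B or C and 3 without secretory B. Among DNA replication genes and replication histones 7 of 23 fell and the other 16 were not called (3 without secretory B and 4 without pre-secretory A or B). The histone H3.1 locus AT5G10400 had 223, 152 and 238 rescaled TPM in the secretory libraries, against 1221, 599.9 and 390.3 in the pre-secretory libraries, a change of -1.71 log2 units (SE 0.41, adjusted p = 0.0189). AT5G10390, another H3.1 locus, fell with a change of -2.14 log2 units (adjusted p = 0.00535), and the histone H4 loci AT5G59690 and AT2G28740 with changes of -2.06 log2 units (adjusted p = 0.00891) and -1.72 log2 units (adjusted p = 0.0132). Histone loci are nearly identical in sequence, so reads may be split among them. AT5G10400 was not called without secretory B (adjusted p up to 0.0698). CYCD3;2, a cyclin of cell cycle entry, averaged 11.7 ± 3.77 rescaled TPM in secretory and 32.0 ± 11.9 in pre-secretory nectaries and changed by -1.37 log2 units (adjusted p = 0.0168). CDKA;1, the main cyclin-dependent kinase, fell with a change of -0.49 log2 units (adjusted p = 0.0446), and not without secretory B or C or pre-secretory A, B or C (adjusted p up to 0.158).

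Cell wall expansion genes gave 5 higher and 4 lower of 18 tested. EXPA1, an expansin that loosens walls, had 0, 1.05 and 1.51 rescaled TPM in the secretory libraries, against 16.8, 20.9 and 19.1 in the pre-secretory libraries, a change of -3.52 log2 units (SE 0.33, adjusted p = 0.000864). EXPA10, another expansin, fell with a change of -1.73 log2 units (adjusted p = 0.0268). Xyloglucan endotransglucosylases, which cut and rejoin wall polymers, went both ways. XTH5 had 18.22, 45.3 and 42.4 rescaled TPM in the secretory libraries, against 4.79, 3.95 and 3.64 in the pre-secretory libraries, a change of 2.73 log2 units (SE 0.33, adjusted p = 0.00181). XTH24 (2.38 log2 units, adjusted p = 0.000926), XTH16 (2.50 log2 units, adjusted p = 0.0153) and XTH27 (1.29 log2 units, adjusted p = 0.0125) rose too, while XTH8 fell (-1.65 log2 units, adjusted p = 0.0283). The calls were lost for XTH16 without secretory B or C (adjusted p up to 0.0531), for EXPA10 without secretory B or pre-secretory A (adjusted p up to 0.0609) and for XTH8 without secretory A or B or pre-secretory C (adjusted p up to 0.0886). Higher counts were 2 with no rescaling and 3 without secretory C, and lower counts 2 without secretory A or pre-secretory A or C and 1 without secretory B. In wall polymer synthesis 2 of 11 rose, KOR1, a cellulase of cellulose synthesis, by 1.23 log2 units (adjusted p = 0.00156) and IRX14, a xylan synthase subunit, by 0.65 log2 units (adjusted p = 0.0238), the second not without secretory A or B or pre-secretory A or B (adjusted p up to 0.0769). In wall polymer synthesis the number that rose was 0 with no rescaling and 1 without secretory B or pre-secretory A or B. Of 2 tested loci of pectin breakdown and abscission 2 fell, a count that was 1 with no rescaling or without the 3 highest loci or without secretory A or C or pre-secretory A or C and 0 over loci with a mean of at least 5 TPM or without secretory B or pre-secretory B.

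Of 19 tested genes of fatty acid synthesis, which takes place in plastids, and desaturation 8 fell and 1 rose (median log2 change -0.52). MOD1, the enoyl-ACP reductase, had 5.06, 5.27 and 7.57 rescaled TPM in the secretory libraries, against 33.5, 39.5 and 20.0 in the pre-secretory libraries, a change of -2.17 log2 units (SE 0.27, adjusted p = 0.00194). FAD5, a plastid desaturase, had 8.10, 6.32 and 7.57 rescaled TPM in the secretory libraries and 33.5, 35.5 and 37.3 in the pre-secretory libraries, a change of -2.13 log2 units (SE 0.14, adjusted p = 0.000333). The plastid pyruvate kinase subunits PKP-BETA1 and PKP-ALPHA fell with changes of -1.15 log2 units (adjusted p = 0.00447) and -1.04 log2 units (adjusted p = 0.00899). FATB, the thioesterase that releases saturated fatty acids, rose by 0.93 log2 units (adjusted p = 0.0186), but not without secretory B or C (adjusted p up to 0.0633). The number that fell was 2 with no rescaling and 5 without pre-secretory B. Cuticle and wax genes had 5 higher and 8 lower of 26 tested. The elongation enzymes KCS20 (1.53 log2 units, adjusted p = 0.00462), KCR1 (0.98 log2 units, adjusted p = 0.00331) and CER10 (0.46 log2 units, adjusted p = 0.0275) and the alkane enzyme CER3 (0.80 log2 units, adjusted p = 0.0238) rose. PAS2, the dehydratase of the same elongation cycle, averaged 25.4 ± 4.15 rescaled TPM in secretory and 71.9 ± 21.8 in pre-secretory nectaries and changed by -1.44 log2 units (adjusted p = 0.00506). CER1, partner of CER3 in alkane synthesis, averaged 31.4 ± 2.65 rescaled TPM in secretory and 63.4 ± 10.3 in pre-secretory nectaries and changed by -0.98 log2 units (adjusted p = 0.00533). CER3 was not called without secretory A or C or pre-secretory A or B (adjusted p up to 0.076), nor CER10 without secretory A, B or C or pre-secretory A, B or C (adjusted p up to 0.0888), whose change was -0.00118 with no rescaling. Counts on the higher side were 0 with no rescaling, 3 with upper-quartile scaling or without secretory A or B or pre-secretory A or B and 2 without secretory C, and on the lower side 5 without the 3 highest loci or without secretory B or C, 3 over loci with a mean of at least 5 TPM and 4 without secretory A or pre-secretory A, B or C.

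**Figure D4:**
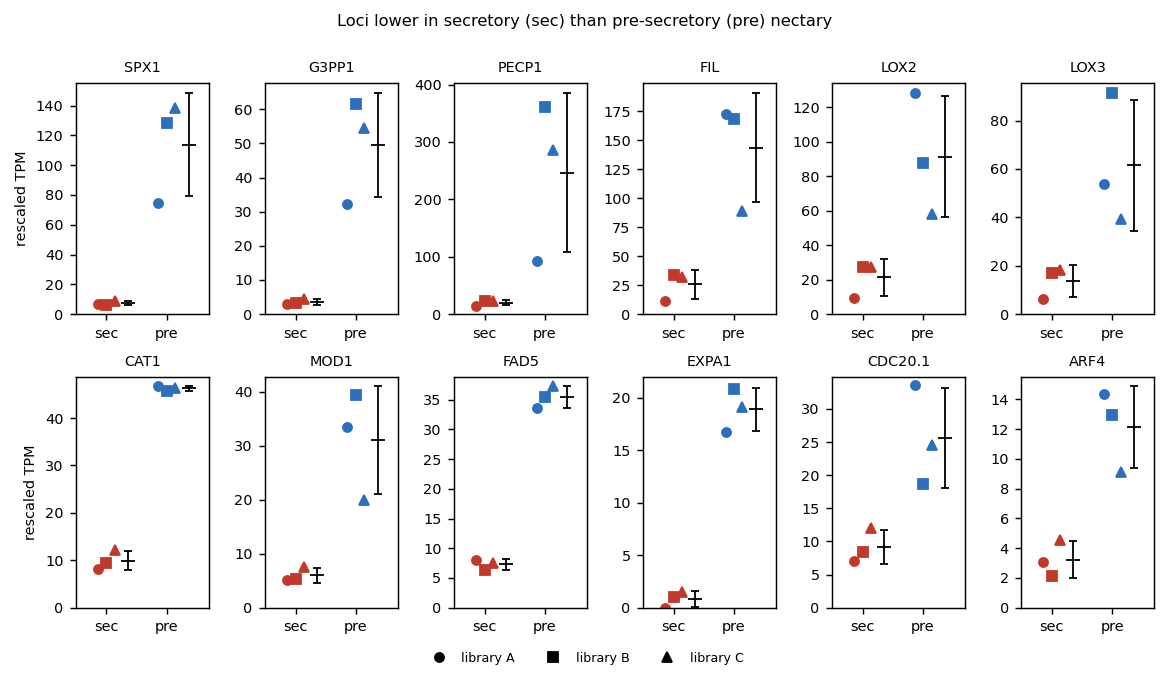
Rescaled TPM of 12 loci in each secretory (sec, red) and pre-secretory (pre, blue) library, with symbols for libraries A, B and C and black bars for the mean ± SD of 3 libraries. In all 12 panels the highest secretory library is below the lowest pre-secretory library. The naming rule required this, except of SPX1, which was to be named whatever its values. All 12 were drawn as loci that fell, so the gap is no further result.

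In respiration AOX1A, the alternative oxidase, which bypasses the proton-pumping steps, had 28.3, 28.4 and 27.2 rescaled TPM in the secretory libraries, against 2.40, 3.38 and 1.82 in the pre-secretory libraries, a change of 3.06 log2 units (SE 0.19, adjusted p = 0.000275). The 3 libraries of each group lay close together. IDH1, a subunit of isocitrate dehydrogenase, rose by 0.49 log2 units (adjusted p = 0.04), a call lost without secretory A, B or C or pre-secretory A, B or C (adjusted p up to 0.115). These were the 2 calls of 11 tested. Autophagy and proteolysis genes rose in 5 of 23 and fell in 1 (21.7% and 4.3%, beside 14.6% and 15.4% of all tested loci). The number called higher was 0 with no rescaling and 3 without pre-secretory B. ATG9, a membrane protein of early autophagosomes, averaged 13.2 ± 1.85 rescaled TPM in secretory and 4.81 ± 0.263 in pre-secretory nectaries and changed by 1.28 log2 units (adjusted p = 0.00204). RD21, a vacuolar protease, averaged 350.0 ± 51.3 rescaled TPM in secretory and 182 ± 41.4 in pre-secretory nectaries and changed by 0.95 log2 units (adjusted p = 0.0166), and NBR1, a cargo receptor, rose by 0.81 log2 units (adjusted p = 0.008). The ubiquitin-like proteins of autophagosomes differed in direction, ATG8A with 0.92 log2 units (adjusted p = 0.0397) and ATG8D with -1.0013 log2 units (adjusted p = 0.00346). ATG8A was not called without secretory A, B or C or pre-secretory A or B (adjusted p up to 0.102).

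Outside the lists, the largest qualifying changes are given by identifier. AT3G24500 had 47.6, 93.8 and 77.2 rescaled TPM in the secretory libraries and was listed at 0 in all 3 pre-secretory libraries. It passed the filter through the secretory libraries alone, so its p-value is not given. Without secretory A, B or C it was not tested. AT5G15950 had 586, 949 and 702 rescaled TPM in the secretory libraries, against 32.3, 7.33 and 6.37 in the pre-secretory libraries, a change of 5.85 log2 units (SE 0.54, adjusted p = 0.000758). On the lower side AT1G14700 had 1.01, 2.11 and 3.03 rescaled TPM in the secretory libraries and 38.3, 58.1 and 67.3 in the pre-secretory libraries, a change of -4.21 log2 units (SE 0.30, adjusted p = 0.000362), and AT4G32480 changed by -3.73 log2 units (SE 0.47, adjusted p = 0.00205). The groups did not overlap for these 4 loci, as their choice required.

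Post-secretory nectaries, taken after the petals had dropped, are described on the same scale with no test, and any comparison with them shares the secretory libraries. Of 89 named genes that rose, all 3 post-secretory libraries were below all secretory libraries for 79, above them for 2 and overlapping for 8. Of 60 named genes that fell, all 3 post-secretory libraries were above all secretory libraries for 43, below them for 3 and overlapping for 14. The named genes were chosen on the same secretory libraries, so nothing is read from these counts. Over all called loci the shares were 84.2% below among 1749 that rose and 83.2% above among 1843 that fell, and over all 11969 tested loci they were 31.9% below and 36.9% above. CRC had 226, 112 and 194 rescaled TPM in post-secretory libraries, SWEET9 had 489, 248 and 485, and SVP had 5.35, 3.14 and 1.14. LEA7 stood at 18.1, 5.65 and 1.71 rescaled TPM and PSY at 26.7, 23.8 and 14.3. Each was far below its secretory level, and CRC and SWEET9 were also below their pre-secretory levels. CAT1 had 79.6, 70.9 and 71.3 rescaled TPM after secretion and LOX2 had 279, 338 and 278, above both earlier stages. The 2 leaf libraries had 58.0 and 126 rescaled TPM of CRC and 192 and 419.8 of SWEET9.

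**Figure D5:**
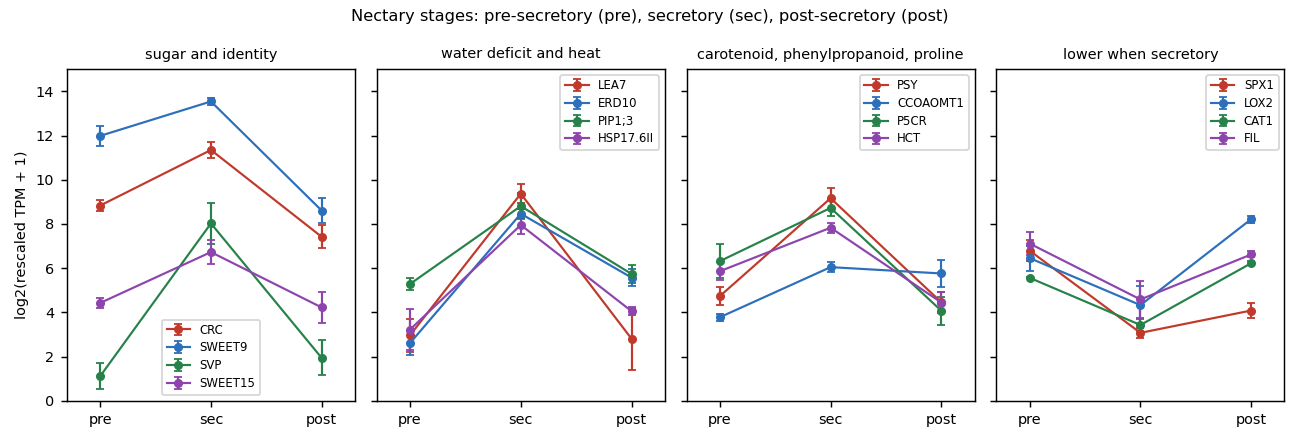
Mean ± SD of log2(rescaled TPM + 1) over 3 libraries at the pre-secretory, secretory and post-secretory stage for 16 named genes in 4 panels. By their means the 12 genes of the first 3 panels peak at the secretory stage, and the 4 genes of the last panel are lowest there. For CCOAOMT1 the secretory (70.9, 71.6 and 54.5) and post-secretory libraries (58.8, 32.6 and 78.2 rescaled TPM) overlap.

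The nectary genes CRC, SWEET9 and CWINV4 were detected in all 6 libraries. Markers of other tissues of the flower are given by their summed levels. Of 22 listed pollen and anther markers 4 were in the table, with a sum of 12.1 to 24.2 rescaled TPM in secretory libraries and 4.79 to 17.3 in pre-secretory libraries, and 0 of 4 tested were called by limma, with 1 at an unadjusted p under 0.05. The 2 petal and stamen markers in the table summed to 32.7 to 99.9 rescaled TPM in secretory libraries and 51.9 to 68.3 in pre-secretory libraries. AP3 and PI, which specify petals and stamens, were not called (adjusted p = 0.351 and 0.635), and PI was highest in secretory C. Carpel and ovule markers summed to 68.8 to 86.4 rescaled TPM in secretory libraries and 76.7 to 96.4 in pre-secretory libraries, with 3 called lower of 6 tested. The number called lower was 1 without any 1 of the 6 libraries. STK, an ovule MADS-box factor, averaged 62.4 ± 5.28 rescaled TPM in secretory and 71.3 ± 12.0 in pre-secretory nectaries and was not called (adjusted p = 0.455). Most of the carpel and ovule sums was STK, so they say little about the other markers. Of the 8 such markers in the table, 4 were listed at 0 in all secretory libraries and 1 in all pre-secretory libraries. Vascular markers summed to 30.4 to 42.4 rescaled TPM in secretory libraries and 31.0 to 40.7 in pre-secretory libraries, with 1 called lower of 7 tested. Stomatal and trichome markers had 0 called by limma of 2 and of 1 tested and 0 at an unadjusted p under 0.05, and the stomatal sum was 67.4 to 174 in secretory libraries and 50.3 to 89.2 in pre-secretory libraries. The part of other flower tissue in the changes above was not tested.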

How the data were processed

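Nectary RNA libraries were stranded mRNA libraries sequenced as paired reads, per the labels' protocols. The authors quantified transcripts with kallisto 0.46.1, per the submitters' processing notes, and deposited TPM rounded to whole numbers per Arabidopsis locus, treated here as a score because rounding removes small values. For kallisto's sequence set and the matching of transcripts to loci, the method is not given in the sources used here. All 23 value columns were matched to samples by title.

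The 6 libraries were rescaled by median ratios and fitted with limma 3.58.1 in R 4.3.3 (log2(value + 1), trended prior variance, no replicate block, a filter of 1 TPM or more in 3 or more libraries, Benjamini-Hochberg adjusted p under 0.05). Post-secretory and leaf libraries were put on the same scale for description. The fit was run on simulated data with few changed loci, as many raised as lowered. Such a run cannot test the scaling or the error rate where many loci change. Figures were drawn with matplotlib 3.10.9. Alternatives were the scaling, the 3 highest loci, the pseudocount, the filter, the prior, a fit on 9 nectary libraries, a replicate block and omission of each library. Smaller moves of the list counts under these alternatives are mostly not given. 

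The comparison and the 50 gene lists (1099 loci, 825 in the table) were chosen with earlier results of these data known, so a list is described by counts and medians with no set test. Some genes were to be named whatever their values: SWEET9, SWEET11, CWINV4, SPS1F, SUC2, CRC, SVP, MYB21, MYB24, PSY, PIP1;3, BAM1, LEA7, SPX1, NCED3, AP3, PI and STK. Named besides were, per list, up to 4 called members in each direction whose groups do not overlap and whose higher group averages at least 10 rescaled TPM. Outside the lists 2 loci in each direction were named in the same way. A gene that this rule names is counted but not reported here. Precision is limited by 3 libraries per group, and depth per library is unknown.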

Additional observations from a re-analysis of the deposited data

How the results depend on the processing

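Scaling had the largest effect: with values as deposited 858 loci were called (154 higher, 704 lower), 833 of them also called in the same direction after rescaling. Among the 10 settings other than omission of a library, the remaining 9 gave 2824 (mean of at least 5 TPM) to 4512 (9 nectary libraries). Omitting 1 library gave 2115 to 3229 calls, 1082 to 1690 higher and 955 to 1539 lower. The loci tested were then 11623 to 11894, fewer than with all 6 libraries, so a list call lost there may be a locus not tested. No locus called in the main fit was called in the opposite direction in any alternative. Of 149 named genes with a call, 107 kept it in every omission, 57 with values as deposited and 53 in all 16 alternatives. The counts 107 and 53 include AT3G24500, which was tested in only 13 alternatives and not without secretory A, B or C. Signs turned with values as deposited for CER10 (-0.00118), a called gene, and for the uncalled SPS1F (-0.209), CWINV4 (-0.0665), SUC2 (-0.370), MYB21 (-0.0595) and PI (-0.0741), and with upper-quartile scaling for SUC2 (-0.0982). Omitting 1 library gave log2 changes of -0.19 to 1.15 for CWINV4, -0.18 to 0.22 for SUC2 and -0.31 to 0.77 for PI, negative without secretory B for CWINV4, without secretory C or pre-secretory A for SUC2 and without secretory C for PI. The cause was not tested. Libraries with the same letter did not pair: correlations of deviations from the group means were 0.05, 0.15 and 0.07 for A, B and C, and a fit with the letter as a replicate block called 3163 loci (1636 higher, 1527 lower) and 16 photosynthesis genes lower. Rounding to whole TPM limits loci of a few TPM.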

Other observations

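Loci encoded in the organelles were not among the lists. Of 65 tested loci of the plastid genome, 9 were higher (13.8%, beside 14.6% of all tested loci) and 0 lower (beside 15.4%) in secretory nectaries by limma, with 15 at an unadjusted p under 0.05 and a median log2 change of 0.31. Of 44 tested mitochondrial loci, 7 were higher (15.9%) and 1 lower (2.27%), with 16 at an unadjusted p under 0.05 and a median log2 change of 0.45. The libraries were made from mRNA, per the labels, and the level of organelle transcripts in such libraries was not checked by another measure.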
